A study of Mus musculus with 4 samples.

Results

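The genes Rax, Vim, Nnat, Fgf10, Gpr50 and Nes were described here across the cell groups of the adult mouse hypothalamus. They are 6 of the 32285 genes counted, chosen by name as genes that mark tanycytes, and their unique molecular identifiers (UMIs) were summed per library over tanycytes, astrocytes and the other groups of the deposited annotation. The annotation placed 56386 nuclei in 22 groups, of which 1489 nuclei were labelled tanycytes and 8007 astrocytes. Single nuclei from the hypothalamus of adult male mice were sequenced in 4 libraries, 2 from wild-type mice and 2 from TRα1+m mice, which are heterozygous for the R384C mutation of the thyroid hormone receptor α1. Each library pooled 3 mice of a genotype, and each of 2 experimental repeats held 1 library of either genotype, so that n = 2 per genotype throughout and the mice within a pool cannot be told apart. The mutation is carried in the germline, and every cell type of the mutant mice therefore holds it. Both genotypes share the C57/BL6NCr background, the isolation of nuclei from frozen tissue and the 10x chemistry, and the labels name no treatment.

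Tanycytes are radial glia-like cells that line the floor and the lower walls of the third ventricle and send a long process into the hypothalamic parenchyma. α tanycytes lie along the ventricular wall and β tanycytes line the median eminence, where they regulate the passage of hormones and take part in the local activation of thyroid hormone. Rax encodes a homeodomain transcription factor of the retina and the ventral forebrain, and Fgf10 a secreted fibroblast growth factor. Gpr50 encodes an orphan receptor of the melatonin receptor family, and Nnat, neuronatin, a small proteolipid of the endoplasmic reticulum whose gene is imprinted. Vim and Nes encode vimentin and nestin, intermediate filament proteins that adult tanycytes share with neural progenitors. On the build GRCm38 Rax (ENSMUSG00000024518) lies on chromosome 18 from 65928277 to 65939787 on the minus strand and overlaps the antisense gene Raxos1, Vim (ENSMUSG00000026728) on chromosome 2 from 13573927 to 13582826 and Nes (ENSMUSG00000004891) on chromosome 3 from 87971078 to 87980451, both on the plus strand. Fgf10 (ENSMUSG00000021732) extends on the plus strand of chromosome 13 from 118669791 to 118792115 and contains the antisense gene Gm16263, and Gpr50 (ENSMUSG00000056380) lies on the plus strand of chromosome X from 71663667 to 71669257. Nnat (ENSMUSG00000067786), on the plus strand of chromosome 2 from 157560078 to 157562522, lies inside Blcap, which runs on the opposite strand.

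The 4 libraries held 47260127 to 59112785 UMIs in 11976 to 16435 nuclei, and 44 to 64 nucleus barcodes were shared by each of the 6 pairs of libraries. Tanycytes numbered 414 and 389 in the wild-type repeats 1 and 2 and 425 and 261 in the TRα1+m repeats, with a median of 1832 to 2295 UMIs per nucleus. They made up 1.65% of all UMIs but contributed 36.7% of the Gpr50 UMIs, 28.9% of the Fgf10 UMIs, 26.4% of the Rax UMIs, 14.0% of the Nnat UMIs, 10.5% of the Nes UMIs and 6.12% of the Vim UMIs.

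The tanycyte label was compared with marker genes of the candidate cell types. Of 20 other tanycyte genes, 17 were higher in tanycytes than in astrocytes in all 4 libraries, among them the LIM homeobox gene Lhx2 and Dio2, the deiodinase that activates thyroid hormone. All 7 β tanycyte genes and 5 of 7 α tanycyte genes were higher in all 4 libraries, and all 8 astrocyte genes were lower. Of the α genes 1, Slc7a11, was lower in tanycytes in all 4 libraries. The tanycyte lists overlap, here and below. All β genes and all α genes except Slc7a11 are also among the 20 other tanycyte genes, so the counts of these lists are not independent. The 10 ependymal genes, which build or regulate motile cilia or are otherwise typical of ependymal cells, were also all higher in tanycytes in every library. Their summed level in tanycytes was 2992 CPM (the UMIs of a gene scaled to the same total in every group and library, 1e6 UMIs) and 654 CPM in the wild-type repeats 1 and 2 and 4421 CPM and 864 CPM in the TRα1+m repeats, against 132 to 216 CPM in astrocytes. By the same measure the α tanycyte genes summed to 645 CPM ± 71.1 in tanycytes and 613 CPM ± 87.5 in astrocytes (SD, n = 4), with overlap. The β tanycyte genes summed to 5089 CPM ± 2474 in tanycytes and 110 CPM ± 17.0 in astrocytes (SD, n = 4). When each nucleus was thinned to 900 UMIs, 2 or more of the ependymal genes were detected in 23.2% and 10.3% of the tanycyte-labelled nuclei of the wild-type repeats 1 and 2 and in 27.5% and 14.2% of those of the TRα1+m repeats, 290 of 1489 nuclei in all, against 0.987% of astrocytes. The group labelled tanycytes thus held nuclei with ependymal genes, more of them in repeat 1 than in repeat 2 of either genotype. Several results that could turn on these nuclei are given with and without the nuclei found by this rule. The likeness of genes over groups is given only with them. Without thinning, 478 of 1489 tanycyte-labelled nuclei had 2 or more ependymal genes. The nuclei with fewer than 2 after thinning therefore still included some with ependymal genes. No defining ependymal gene was at 0, and Foxj1, the transcription factor of motile ciliogenesis, reached 34.4 and 10.8 CPM in the wild-type repeats and 35.1 and 3.38 CPM in the TRα1+m repeats. The excess in repeat 1 was not particular to tanycytes. The ependymal genes summed to 194 and 197 CPM in oligodendrocytes of repeat 1 and to 59.7 and 36.8 CPM in repeat 2. GABA neurons had 86.9 and 106 CPM against 42.5 and 43.5 CPM. The group named MCH neurons had 351 against 105 CPM in wild type and 149 against 165 CPM in TRα1+m. Neuron and oligodendrocyte genes were also found in tanycyte-labelled nuclei. Without thinning, 2 or more neuron genes were detected in 56.8% of them and in 53.3% of astrocytes. For oligodendrocyte genes the shares were 48.6% and 46.7%. The source of these UMIs was not tested.

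**Figure D1:**
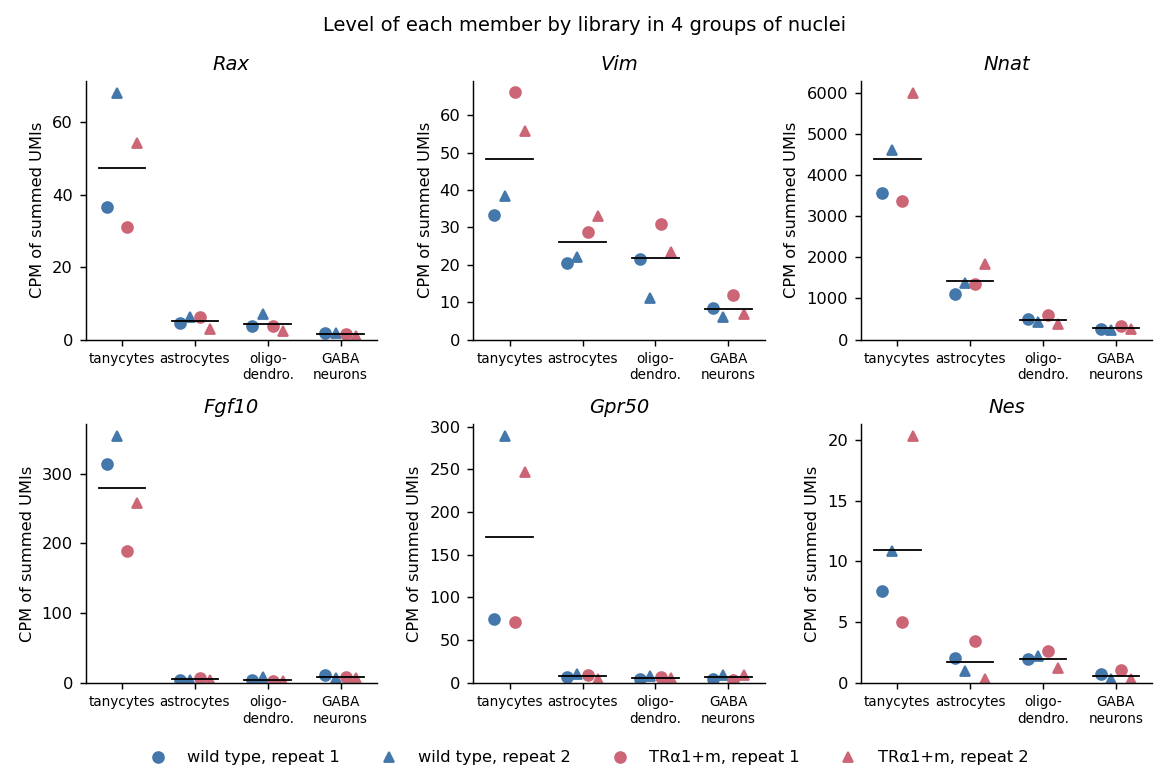
Level of each gene in CPM of summed UMIs (vertical axis, linear from 0) in tanycytes, astrocytes, oligodendrocytes and GABA neurons, 1 point per library and a line at the mean of 4 libraries. For Rax, Nnat, Fgf10 and Gpr50 every tanycyte library stands above every library of the other 3 groups, and the 2 tanycyte libraries of repeat 2 stand above those of repeat 1 for Gpr50.

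The groups come from a clustering of the same nuclei, and the study named the tanycytes with Nnat, so levels in tanycytes against other groups are a description without a test. Levels of different genes were not compared with each other. Rax was detected at 36.5 and 68.0 CPM in the tanycytes of the wild-type repeats 1 and 2 and at 31.1 and 54.1 CPM in those of the TRα1+m repeats. The mean of 47.4 CPM ± 16.9 (SD, n = 4) was 9.52 times the next highest group, the astrocytes at 4.98 CPM ± 1.64 (SD, n = 4), and the libraries of both groups did not overlap. Astrocytes, microglia with macrophages and somatostatin neurons followed with 4.98, 4.69 and 4.36 CPM, and neighbours in this order overlapped.

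Of the 6 genes, Gpr50 had the highest ratio of the tanycyte level to that of the next group. It reached 75.2 and 289 CPM in the wild-type repeats 1 and 2 and 71.2 and 247 CPM in the TRα1+m repeats. The mean of 170 CPM ± 114 (SD, n = 4) was 19.0 times that of the next group, microglia and macrophages at 8.96 CPM ± 5.00 (SD, n = 4), with no overlap. Below it astrocytes at 7.48 CPM and GABA neurons at 6.47 CPM overlapped with their neighbours. The related melatonin receptor genes Mtnr1a and Mtnr1b had a level of 0.246 CPM each in tanycytes, a single UMI each over the 4 libraries.

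Fgf10 was measured at 315 and 354 CPM in the tanycytes of the wild-type repeats and at 190 and 259 CPM in those of the TRα1+m repeats. Both mutant libraries were below both wild-type libraries, as were those of 14.1% of all genes tested in tanycytes. The mean of 279 CPM ± 71.3 (SD, n = 4) was 4.34 times that of somatostatin neurons, the next group, at 64.3 CPM ± 29.2 (SD, n = 4), and their libraries did not overlap. Fgf10 was also measured in neurons, where the second glutamatergic group had 30.4 CPM ± 5.68 (SD, n = 4) and oxytocin and vasopressin neurons had 28.6 CPM ± 16.0 (SD, n = 4), each overlapping with its neighbours in the order. Astrocytes had 4.72 CPM.

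Nnat was detected in every group, from 139 CPM in orexin neurons upwards. In tanycytes it reached 3555 and 4599 CPM in the wild-type repeats 1 and 2 and 3366 and 5999 CPM in the TRα1+m repeats. Their mean, 4380 CPM ± 1208 (SD, n = 4), was 2.44 times that of the vasopressin neurons, 1792 CPM ± 351 (SD, n = 4), and 3.10 times that of astrocytes, 1415 CPM ± 307 (SD, n = 4). The tanycyte libraries overlapped with neither group, whereas vasopressin neurons and astrocytes overlapped with each other.

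The filament genes Vim and Nes did not peak in tanycytes. Vim was measured at 33.3 and 38.4 CPM in the wild-type repeats and at 66.2 and 55.8 CPM in the TRα1+m repeats, on average 48.4 CPM ± 15.3 (SD, n = 4). The group named MCH neurons, after melanin-concentrating hormone, had 53.8 CPM ± 27.8 (SD, n = 4), and microglia with macrophages had 31.1 CPM ± 9.47 (SD, n = 4), both overlapping with tanycytes. Nes rested on 35 UMIs in all tanycytes, with 7.52 and 10.8 CPM in the wild-type repeats and 5.01 and 20.3 CPM in the TRα1+m repeats, against 21.8 CPM ± 10.8 (SD, n = 4) in the MCH group. In the MCH group, 459 nuclei with 2 or more endothelial or mural genes had 145 CPM Vim and 71.6 CPM Nes, and the other 1626 nuclei had 14.1 and 1.81 CPM. Both filament genes are also expressed by vascular cells, and the label of that group was not that of a vascular type. Tanycytes with 2 or more such genes numbered 35, and without them Vim in tanycytes was 49.2 CPM ± 14.8 (SD, n = 4) and Nes 10.5 CPM ± 6.13 (SD, n = 4).

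**Figure D2:**
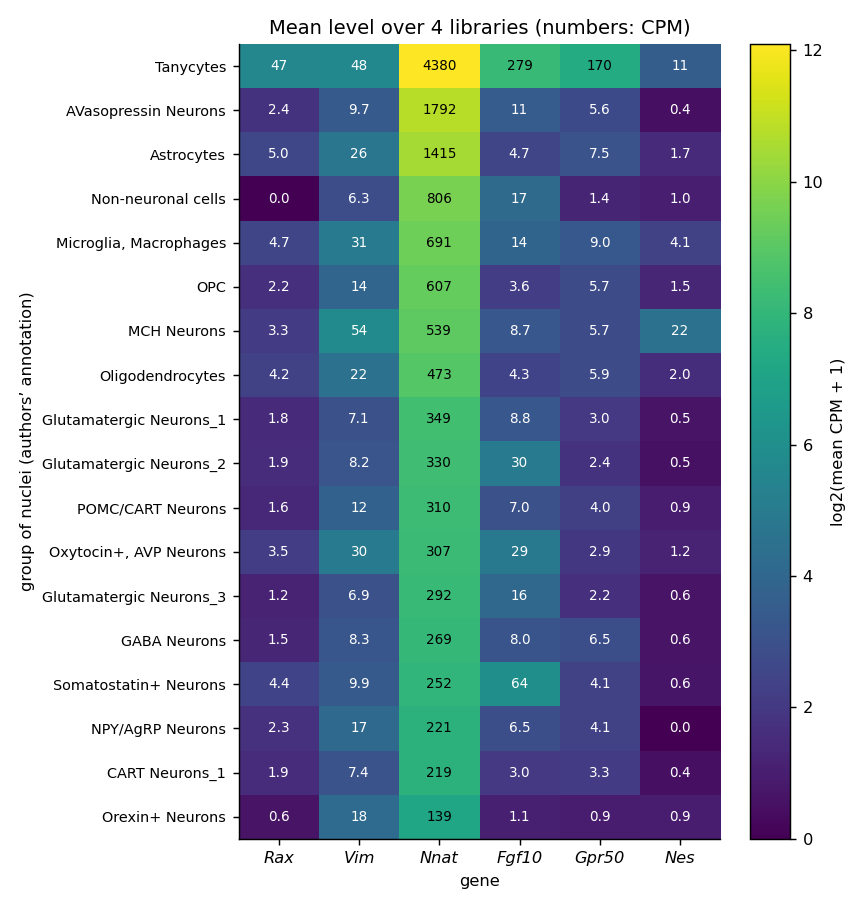
Mean level over 4 libraries of each gene (columns) in each of the 18 groups with at least 10 nuclei in every library (rows, ordered by Nnat), coloured by log2(CPM + 1) and with the CPM printed. Tanycytes hold the highest value in the columns of Rax, Nnat, Fgf10 and Gpr50, and the group named MCH neurons in those of Vim and Nes.

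The share of nuclei with at least 1 UMI was compared after thinning every nucleus to 900 UMIs, so that all groups had the same depth. Intervals of single libraries are exact binomial intervals at 95% and cover counting error only, not the variation between draws of UMIs. Nnat was detected in 90.8% ± 2.38 (SD, n = 4) of tanycytes, 64.8% of astrocytes and 36.0% of oligodendrocytes. Fgf10 was detected in 18.7% ± 4.72 (SD, n = 4) of tanycytes and in 0.384% of astrocytes and 0.426% of oligodendrocytes. The share of tanycytes with Fgf10 was 22.5% (18.5 to 26.8) and 23.1% (19.0 to 27.7) in the wild-type repeats. In the TRα1+m repeats it was 14.4% (11.2 to 18.1) and 14.9% (10.8 to 19.9). These shares depended on the draw. With another seed they were 17.9% and 23.9% in the wild-type repeats and 16.2% and 15.7% in the TRα1+m repeats. Gpr50 was detected in 6.28% (4.14 to 9.07) and 23.7% (19.5 to 28.2) of wild-type tanycytes in repeats 1 and 2, and in 6.12% (4.03 to 8.84) and 21.1% (16.3 to 26.5) of TRα1+m tanycytes. In astrocytes and oligodendrocytes Gpr50 was found in 0.757% and 0.525% of nuclei. Rax was detected in 4.65% of tanycytes, 0.485% of astrocytes and 0.448% of oligodendrocytes, and Vim in 4.34%, 2.23% and 1.92%. Nes was detected in 0.847%, 0.135% and 0.224% of the same groups. For Rax, Fgf10 and Gpr50 the shares in astrocytes and oligodendrocytes were alike and all below 1%, and the source of these UMIs was not tested. Somatostatin neurons had Fgf10 in 5.06% ± 2.84 (SD, n = 4) of nuclei, with 1.68% (0.204 to 5.94) in the lowest library.

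Most tanycytes with a UMI of Rax, Vim, Fgf10, Gpr50 or Nes had a single one. Of the 5 genes other than Nnat, at least 1 was detected in 898 of 1489 tanycytes without thinning and 2 or more in 304 (20.4%), which was 52.0% of all such nuclei in the data. The same held for 25 of 8007 astrocytes (0.312%), 56 of 2085 nuclei of the MCH group (2.69%) and 59 of 15042 GABA neurons (0.392%). After thinning, at least 1 of the 5 genes was found in 33.1% and 48.8% of wild-type tanycytes of repeats 1 and 2 and in 26.4% and 39.8% of TRα1+m tanycytes, against 3.97% of all astrocytes. The higher pair of shares was that of repeat 2.

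The levels of the 6 genes over the 18 groups were compared with those of 14099 genes by Pearson's r of log2(CPM + 1). These values describe 18 groups that share the same 4 libraries, and no test was made. Rax was most like Bphl (r = 0.93), Gpr50 (r = 0.93) and Zfp474 (r = 0.91). Rax and Gpr50 were both chosen as genes that mark tanycytes and were highest there, so their likeness over groups is no evidence of a link. In the splits of tanycytes below, 0 of 20 pairs of members were called. Those splits called 0.250% to 2.18% of all genes, so they cannot decide on a link either. Gpr50 was most like Iqca, Cfap52 and Fam216b (r = 0.95 each), Cfap52 being a cilium gene. Nnat was nearest to Blcap (r = 0.96), the gene that contains it, followed by Cdc14a and Tekt1, and Fgf10 to its antisense gene Gm16263 (r = 0.90), followed by Zmynd10 and Cfap45. The genes of each of these overlapping pairs lie on opposite strands. Whether the overlap affected the counts was not tested, so the likeness of Nnat with Blcap and of Fgf10 with Gm16263 is uncertain. Vim was nearest to Ubald2 (r = 0.88), Smad5 and Hnrnpf. Nes was nearest to Flt1 (r = 0.97), a receptor of vascular endothelium, followed by Fmo2 and the tight junction gene Ocln. Between the members, r ranged from 0.19 for Vim and Fgf10 to 0.93 for Rax and Gpr50, and was 0.81 for Vim and Nes. The tanycyte levels used here include the nuclei with ependymal genes, and r was not computed without them. A high r therefore does not show that 2 genes are expressed in the same nuclei. In the splits of tanycytes below, the called ependymal genes were lower in nuclei with Gpr50, Fgf10 or Rax, and Hydin was higher with Nnat.

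The comparison of genotypes asks whether the mutant receptor altered the tanycyte genes. With edgeR's quasi-likelihood test on library sums and Benjamini-Hochberg adjustment over all 11217 genes tested, no member was called in tanycytes, and 0% of all genes were, with 155 genes at an unadjusted p under 0.05. This fit had no term for the repeat. The axis of largest variation among libraries separated the repeats and held 69.4% of the variance in tanycytes and 66.1% in astrocytes. The lack of calls therefore does not show that no gene differed. Fgf10 was lower in TRα1+m tanycytes by a log2 difference of -0.57 ± 0.23 (SE, unadjusted p = 0.0468, adjusted p = 1.00). The CPM of Fgf10 in the mutant was 0.603 times that of the wild type within repeat 1 and 0.732 times within repeat 2. When the experimental repeat was added as a block to the edgeR fit, 54 genes were called (0.481%), and Fgf10 was among them with a log2 difference of -0.58 ± 0.15 (SE, adjusted p = 0.0473). In the 1199 tanycyte-labelled nuclei with fewer than 2 ependymal genes the difference was of like size, -0.53 ± 0.16 (SE) with the block, but its adjusted p was 0.949 in edgeR. The Fgf10 levels of these nuclei were 397 and 366 CPM in the wild-type repeats and 254 and 277 CPM in the TRα1+m repeats, which again did not overlap. In these nuclei the share of all genes without overlap was not counted. Of all genes in tanycytes, 14.1% were lower in both mutant libraries than in both wild-type libraries and 11.6% were higher in both.

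Vim was 1.99 times as high in the mutant within repeat 1 and 1.45 times within repeat 2. Its log2 difference was 0.78 ± 0.27 (SE, unadjusted p = 0.0272, adjusted p = 1.00), and with the block the edgeR adjusted p was 0.209, so that Vim was not called in either fit. The libraries of the genotypes did not overlap for Vim in tanycytes, and 11.6% of all genes there were likewise higher in both mutant libraries. In the 53 tanycytes with Vim in the TRα1+m repeat 1, 1 nucleus held 7 of the 66 UMIs. Rax differed by -0.32 ± 0.41, Nnat by 0.21 ± 0.31, Gpr50 by -0.20 ± 0.81 and Nes by 0.33 ± 0.75 (log2, SE). The 95% interval of the Gpr50 fold without the block ran from 0.290 to 2.62 and with the block from 0.714 to 1.13, and that of Rax with the block from 0.576 to 1.19, so changes within these ranges could not be told from none.

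The blocked fit called 0.481% of all genes in tanycytes, which is the share to set beside the counts of lists in this paragraph. Beside Fgf10, it called 2 genes of the 7 tested for thyroid hormone handling. Crym, which binds thyroid hormone in the cytosol, was higher in the mutant by 1.02 ± 0.25 (log2, SE, edgeR adjusted p = 0.0266), with 29.0 and 48.3 CPM in the wild-type repeats and 43.1 and 118 CPM in the TRα1+m repeats. Trhde, the ectoenzyme that degrades thyrotropin-releasing hormone, was lower by 1.09 ± 0.16 (log2, SE), with 264 and 387 CPM against 113 and 194 CPM. The genotypes overlapped for Crym and did not overlap for Trhde, and 14.1% of all genes were likewise lower in both mutant libraries. Of the 7 β tanycyte genes 1 was called, Fndc3c1, lower by 1.89 ± 0.17 (log2, SE), and of 6 α tanycyte genes 1, Crym. Of the other tanycyte genes 2 of 17 were called, Crym and Fndc3c1, of the FGF signalling genes 0 of 11 and of the intermediate filament genes 0 of 7. In these last lists the largest differences were 1.68 ± 0.55 for Il17rd and 0.71 ± 0.37 for Etv5, and -0.44 ± 0.23 for Nefl and -0.29 ± 0.40 for Nefm (log2, SE). The called genes with the largest differences were Ecrg4 (1.85), Gm28411 (1.61), Emp2 (1.29), Sema5b (1.27) and Mfge8 (1.09) among those higher in the mutant and Myocd (-2.90), Actn2 (-2.60), Cthrc1 (-2.52), Gm30097 (-2.26) and Cysltr1 (-1.95) among those lower, each with its log2 difference. The median over all genes was 0.01. Of the 9 ependymal genes tested, 1 was called with the block, Cfap299, higher by 0.59, and the median of the list was 0.49, while the share of nuclei with 2 or more ependymal genes was higher in the mutant of each repeat. Fabp7 was higher by 0.94 and the neuronal gene Rbfox1 lower by 1.21 (log2, with the block) in the same fit of all nuclei. Each was the only called gene of its list, the neural progenitor and the neuron list. The neuron list summed in tanycytes to 1242 and 1288 CPM in the wild-type repeats and 1035 and 790 CPM in the TRα1+m repeats. In astrocytes it summed to 1098 and 1139 CPM and to 1176 and 845 CPM. Pmch, the gene of melanin-concentrating hormone and on none of the lists, was also called in the fit of all nuclei (-0.96, log2, edgeR adjusted p = 1.65e-06). Whether the UMIs of Rbfox1 and Pmch came from the tanycytes themselves was not tested.

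The blocked fit was repeated in the 1199 nuclei with fewer than 2 ependymal genes, where it called 2 of 9650 genes (0.0207%), Fndc3c1 and Sgcz, both lower in the mutant, and 0 genes higher. Of the 54 genes called in all nuclei 52 were tested there, and 51 of these had a difference of the same sign. Fndc3c1 was lower by 1.78 ± 0.17 (log2, SE, edgeR adjusted p = 0.00875). Crym at 1.07 ± 0.26 (log2, SE, edgeR adjusted p = 0.515) and Trhde at -1.11 ± 0.16 (log2, SE, edgeR adjusted p = 0.0926) were not called. The ependymal gene Cfap299 was at 0.32 there, Fabp7 at 1.10 and Rbfox1 at -1.34 (log2), also not called.

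In astrocytes 0% of 14072 genes were called for the genotype, with 312 genes at an unadjusted p under 0.05 and 2 called by DESeq2. Vim was again higher in the mutant, at 20.4 and 22.2 CPM in the wild-type repeats and 28.8 and 33.0 CPM in the TRα1+m repeats. The difference was 0.54 ± 0.21 (log2, SE, unadjusted p = 0.0389, edgeR), and 12.9% of all genes in astrocytes were likewise higher in both mutant libraries and 12.6% lower in both. With the block 1.74% of genes were called in astrocytes but no member, the closest being Nnat (0.36 ± 0.11, log2, SE, adjusted p = 0.0696 in edgeR) and Vim (adjusted p = 0.135). Fgf10 in astrocytes was at 3.35, 4.63, 6.69 and 4.20 CPM, and the share of astrocytes with Fgf10 was close to that of oligodendrocytes, as given above. The difference of the Fgf10 genotype effect between tanycytes and astrocytes was -1.06 ± 0.37 (log2, SE), with an unadjusted p of 0.0120 and an adjusted p of 1.00 in edgeR. Of all genes, 0.00706% were called in that test, which is 1 gene, and none of the members.

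Across the 18 groups, 0 member tests were called for the genotype without the block, in edgeR or in DESeq2. The edgeR fit called 0% of all genes in tanycytes and in astrocytes, and the share in the other groups is not given here. The lack of calls is therefore no result about the members. The fitted difference of Nnat was above 0 in 18 of 18 groups (0.02 to 0.53 log2, median 0.20), that of Vim in 12 of 13 (-0.09 to 1.11, median 0.59) and that of Rax below 0 in 6 of 6 (-0.76 to -0.24, median -0.43). For Fgf10 it was below 0 in 10 of 12 groups, from -0.97 to 0.62 with a median of -0.27, and in 9 of 12 groups in DESeq2. The lowest unadjusted p over groups in these tests was 0.0153 for Nnat and 0.0272 for Vim. These groups come from the same 4 libraries, so the count of groups is no count of replicates. How many of all genes kept a sign over the groups was not counted, so these counts are no result about the members. With the block, Nnat was called in the vasopressin neurons (0.43 ± 0.10, log2, SE, edgeR adjusted p = 0.0121) and Vim in oligodendrocytes (0.82 ± 0.24, log2, SE, edgeR adjusted p = 0.0303). Of all genes, 0.364% and 4.35% were called in these groups. For Vim the wild-type libraries of oligodendrocytes had 21.6 and 11.1 CPM and the TRα1+m libraries 31.0 and 23.4 CPM.

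The largest differences of the members lay between the experimental repeats. A fit of the repeat with the genotype as a term called 1583 genes in tanycytes (14.1%), of which 592 were higher in repeat 2. Gpr50 was higher in repeat 2 by 1.81 ± 0.17 (log2, SE, edgeR adjusted p = 1.29e-16), a 3.51-fold difference with a 95% interval from 2.78 to 4.43. It was 3.84 times as high in wild-type repeat 2 as in wild-type repeat 1, and 3.47 times in the TRα1+m libraries. The libraries of repeat 1 lay at 71.2 and 75.2 CPM and those of repeat 2 at 247 and 289 CPM. Nnat was higher in repeat 2 by 0.55 ± 0.15 (log2, SE, edgeR adjusted p = 0.00534) and Rax by 0.79 ± 0.26 (log2, SE, edgeR adjusted p = 0.0279), while DESeq2 gave adjusted p values of 0.186 and 1.00. Nnat was not called without the TRα1+m repeat 1 (edgeR adjusted p = 0.120) or the TRα1+m repeat 2 (0.402). Rax was not called without the wild-type repeat 1 (edgeR adjusted p = 0.0673), the wild-type repeat 2 (0.309) or the TRα1+m repeat 1 (0.277), and Gpr50 was called without any one library. Nes (1.18 ± 0.56), Fgf10 (0.24 ± 0.15) and Vim (-0.09 ± 0.26, all log2, SE) were not called. The smallest p that an exact permutation of 2 against 2 libraries can give is 0.333, so these calls rest on the spread pooled across genes.

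**Figure D3:**
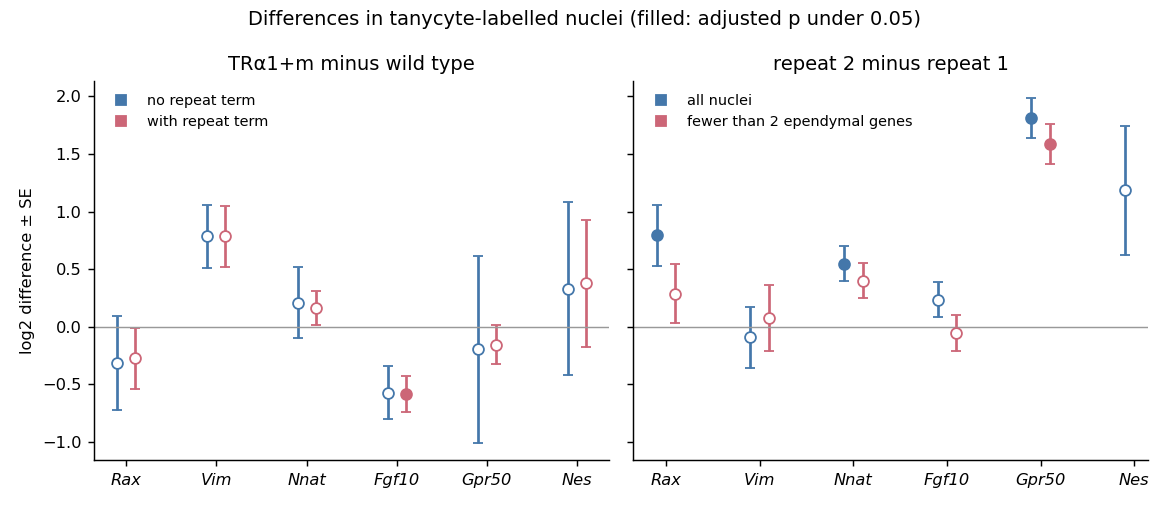
Log2 differences in tanycytes from edgeR with their standard errors, for TRα1+m minus wild type (left, with and without a term for the repeat) and repeat 2 minus repeat 1 (right, in all nuclei and in those with fewer than 2 ependymal genes). Filled points had an adjusted p under 0.05 over all genes tested, which were Fgf10 at the left with the repeat term and Gpr50, Nnat and Rax at the right, of which Gpr50 alone was also filled in nuclei with fewer than 2 ependymal genes; Nes was not tested in those nuclei.

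Nuclei with ependymal genes were unequally divided between the repeats, as given above, and all 9 ependymal genes tested in tanycytes were lower in repeat 2, with a median of -2.20 (log2) against 0.02 for all genes. Among the nuclei with fewer than 2 ependymal genes, Gpr50 was still higher in repeat 2, at 86.2 and 86.7 CPM in repeat 1 and 287 and 250 CPM in repeat 2. The difference there was 1.59 ± 0.17 (log2, SE, edgeR adjusted p = 0.00220), where 2.85% of 9650 genes were called. The ependymal gene Tmem212 was still among those called. It was at 41.6 and 31.1 CPM in repeat 1 and at 0 and 3.82 CPM in repeat 2, so the imbalance was not fully removed. Among the nuclei with 2 or more ependymal genes, Gpr50 was at 49.7 and 46.7 CPM in repeat 1 and at 303 and 219 CPM in repeat 2. The repeats did not overlap on either side, but the share of all genes whose repeats do not overlap was not counted. Rax and Nnat were not called in the nuclei with fewer than 2 ependymal genes, at 0.29 ± 0.26 and 0.40 ± 0.16 (log2, SE, edgeR adjusted p = 0.634 and 0.239). Rax in these nuclei was at 50.8 and 47.4 CPM in repeat 1 and 64.8 and 59.3 CPM in repeat 2. Over the 4 libraries Fgf10 was at 323 CPM ± 69.0 (SD, n = 4) in the nuclei with fewer than 2 ependymal genes and 138 CPM ± 59.4 (SD, n = 4) in the others, without overlap. Vim was at 42.4 CPM ± 14.4 and 72.8 CPM ± 25.0 (SD, n = 4), and Rax at 55.6 CPM ± 7.91 and 31.1 CPM ± 46.8 (SD, n = 4), of which the latter rested on 13 UMIs.

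**Figure D4:**
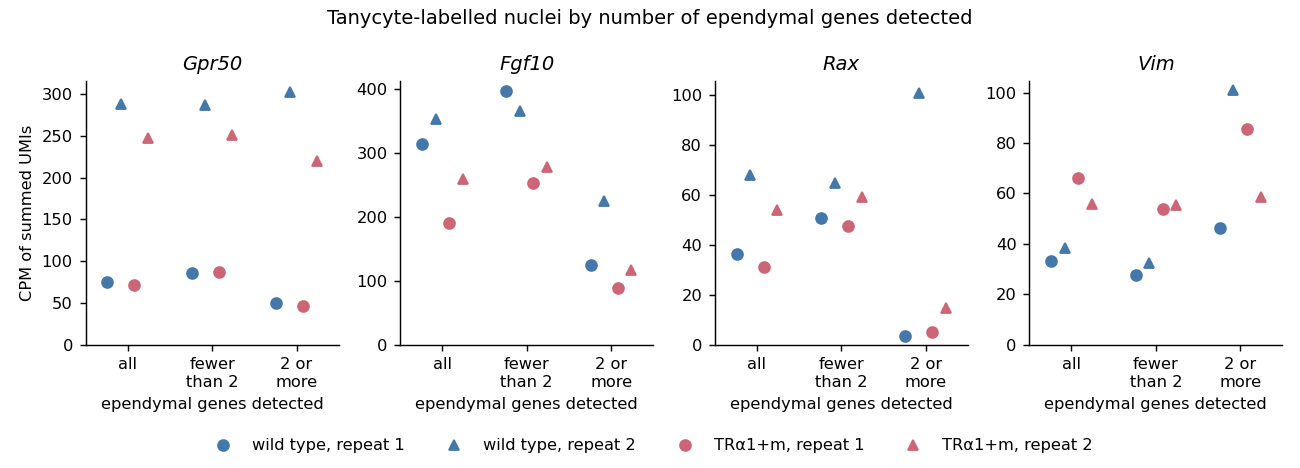
CPM per library (points) of Gpr50, Fgf10, Rax and Vim in all tanycyte-labelled nuclei and in those with fewer than 2 and with 2 or more of 10 ependymal genes after thinning to 900 UMIs. Gpr50 is higher in both libraries of repeat 2 (triangles) on either side, and Fgf10 is lower in both TRα1+m libraries than in both wild-type libraries in all nuclei and on either side. In all nuclei 14.1% of all genes were likewise lower in both TRα1+m libraries, a share that was not counted for the sides.

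Other tanycyte genes differed between the repeats as well. Of the β tanycyte genes 5 of 7 were higher in repeat 2 and 0 were lower, with a median of 1.18 (log2). They included the vasodilator peptide gene Adm (3.32), Fndc3c1 (1.93), the sodium channel gene Scn7a (1.63) and the collagen gene Col25a1 (1.18), and these 4 were also called among the nuclei with fewer than 2 ependymal genes. Of 17 other tanycyte genes tested 9 were higher and 0 lower, and of 6 α tanycyte genes 1 was higher, Crym. Of the genes for thyroid hormone handling 4 of 7 were higher in repeat 2, among them Dio2 (1.24), Crym (1.10) and Trhde (0.58), beside 14.1% of all genes called in either direction. Of 11 FGF signalling genes, which include the receptors of Fgf10 and their feedback targets, 2 were higher, Etv5 (1.26) and Fgfr1 (0.61). Of the 7 intermediate filament genes tested 1 was lower, Synm (-0.84), and of 13 progenitor and Notch genes 2 were lower, Hes1 (-1.05) and Fabp7 (-0.84). The called shares of these last 3 lists and of the α tanycyte list were near that of all genes and are no result about the lists. Among the nuclei with fewer than 2 ependymal genes, where 2.85% of all genes were called, 4 of 7 β tanycyte genes and 4 of 15 other tanycyte genes were called. There 0 of 7 thyroid hormone genes, 0 of 10 FGF genes, 0 of 7 filament genes, 0 of 13 progenitor and Notch genes and 0 of 4 α tanycyte genes were. All differences in this paragraph are log2 values of repeat 2 minus repeat 1 in tanycytes.

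In astrocytes, where 17.4% of all genes were called for the repeat, the level of Gpr50 was 6.19 and 8.53 CPM in repeat 1 and 10.4 and 4.76 CPM in repeat 2. These levels are close to the mean of 5.95 CPM in oligodendrocytes, so tanycytes are set here against a group in which little Gpr50 was measured. The difference of the repeat effect between tanycytes and astrocytes was 1.78 ± 0.33 for Gpr50 (log2, SE, edgeR adjusted p = 0.00121), and the adjusted p of DESeq2 was 0.0577. In that test 2.23% of all genes were called and Gpr50 was the only member, with Nes at an adjusted p of 0.0587 and Rax at 0.268 in edgeR. Nnat was the single member called in astrocytes, higher in repeat 2 by 0.33 ± 0.11 (log2, SE, edgeR adjusted p = 0.0229).

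The members were also read in the other groups, where repeats differed in many genes. In GABA neurons, where 29.7% of genes were called, Gpr50 was higher in repeat 2 by 1.20 ± 0.20 (log2, SE), at 4.32 and 3.36 CPM in repeat 1 and 9.39 and 8.79 CPM in repeat 2. These levels were below 10 CPM in all 4 libraries. The repeats did not overlap, which was not counted over all genes. The share of GABA neurons with Gpr50 at 900 UMIs, 0.620%, was near the 0.525% of oligodendrocytes, and Gpr50 was also higher in repeat 2 in tanycytes. Whether these UMIs came from the neurons was not tested. In the same neurons Nnat (-0.32), Vim (-0.72), Fgf10 (-0.57) and Nes (-1.65) were lower in repeat 2. Nnat was lower as well in oligodendrocytes (-0.48, with 12.4% of genes called), in a CART group (-0.38, 12.2%) and in the first and second glutamatergic groups (-0.30 and -0.26), whereas it was higher in repeat 2 in tanycytes and astrocytes. Vim was lower in the first and second glutamatergic groups (-1.04 and -0.95, with 24.2% and 21.8% of genes called) and higher in the MCH group (1.13, with 21.0%), together with Nes (1.06). Fgf10 was lower in the second and the third glutamatergic groups (-0.41 and -0.79, the latter with 12.2% of genes called). All of these values are log2 differences of repeat 2 minus repeat 1 with an edgeR adjusted p under 0.05.

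The variation of the members among tanycytes was examined by splitting the nuclei by a UMI of a member. Each nucleus was thinned to 900 UMIs, which decided its side, and only the UMIs that had not been drawn were summed and compared, with the library as a term. Splits were possible for 5 members, and every library held 10 or more nuclei on each side. In 20 pairs of a splitting and a measured member, 0 were called, and 3 had an unadjusted p under 0.05 in edgeR. Of all genes the splits called 0.250% to 2.18%, so 0 of 20 is no result about the members. Fgf10 was lower in the nuclei with Vim by 1.43 ± 0.45 (log2, SE, unadjusted p = 0.00148, edgeR adjusted p = 0.228). Gpr50 was higher in the nuclei with Nnat by 0.91 ± 0.34 (log2, SE, edgeR adjusted p = 0.230), and Nnat was higher in the nuclei with Gpr50 by 0.28 ± 0.12 (log2, SE, edgeR adjusted p = 0.649). Of the 20 differences, 9 were above and 11 below 0.

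Tanycytes with and without Fgf10 differed in 142 genes (2.18%), of which 28 were higher with Fgf10. Of the 5 β tanycyte genes tested, Scn7a was higher with Fgf10 by 1.11 ± 0.17 and Col25a1 by 1.09 ± 0.14 (log2, SE), each higher in 4 of 4 libraries. Col25a1 was at 6940 CPM ± 2362 with and 3536 CPM ± 2032 without Fgf10 (SD, n = 4). Slc7a11, a cystine transporter on the α tanycyte list, was lower by 1.12 ± 0.25 (log2, SE), in 4 of 4 libraries. This gene was lower in tanycytes than in astrocytes in all 4 libraries, so its call alone does not place nuclei among α tanycytes. The other α genes tested, Crym (0.58), Cd59a (0.07) and Vcan (-0.63, log2), were not called and went both ways. Of 8 ependymal genes 3 were lower, Spag17 (-2.93), Tmem212 (-2.72) and Ccdc153 (-2.36), and Dnah3, an axonemal dynein gene, had no UMI in the nuclei with Fgf10 and 262 in the others, at least 20.9-fold lower over the 4 libraries against a floor of 3 counts. The called genes with the largest rise were Cysltr1, Mctp2, Ccnjl, Maf and Sntb2 (1.80, 1.60, 1.44, 1.32 and 1.32), and those with the largest fall beside Dnah3 were Dthd1, Lrrc36, Rp1 and Gm47888 (-5.56, -4.99, -4.49 and -4.47, log2), which had 1, 2, 1 and 1 UMIs in the nuclei with Fgf10. Among the nuclei with fewer than 2 ependymal genes 54 genes were called, and without the wild-type repeat 1 there were 9 and without the TRα1+m repeat 1 there were 12.

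Nnat, present in most tanycytes, divided them in another way. The 17 to 49 nuclei per library in which no Nnat was drawn were compared with the rest, and 104 genes differed (1.78%), of which 47 were higher with Nnat. The β tanycyte genes Fndc3c1, Scn7a and Col25a1 were lower with Nnat by 2.34 ± 0.21, 1.70 ± 0.19 and 1.32 ± 0.15 (log2, SE), in 4 of 4 libraries each and 3 of 6 β genes tested. Col25a1 was at 3658 CPM ± 2064 with and 8756 CPM ± 3396 without Nnat (SD, n = 4). Slc7a11, lower in tanycytes than in astrocytes as given above, was higher with Nnat by 1.16 ± 0.32 (log2, SE). So was 1 of 8 ependymal genes, Hydin, by 1.13 ± 0.29 (log2, SE). The other α genes tested, Vcan (1.03), Cd59a (0.32) and Crym (-0.28, log2), were not called. The largest rises were those of Crb1, a polarity gene of the apical membrane, Rp1, Flt1, 9130410C08Rik and Riiad1 (2.42, 2.22, 2.15, 1.93 and 1.86), and the largest falls those of Tex11, Gm5127, Cysltr1, Fndc3c1 and Slc39a13 (-4.55, -2.62, -2.60, -2.34 and -2.21, log2). Scn7a, Col25a1, Slc7a11 and Cysltr1 were thus called in both splits with opposite sign, and no test of the difference between the splits was made. Without the wild-type repeat 2 the Nnat split called 36 genes, and without the TRα1+m repeat 2 it called 64.

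In the splits by Vim, Rax and Gpr50 all called genes were lower with the member. The 13 to 24 nuclei per library with Vim differed from the others in 17 genes (0.250%), among them the β tanycyte genes Scn7a (-4.05 ± 0.52), Col25a1 (-2.43 ± 0.26) and Fndc3c1 (-2.36 ± 0.59, log2, SE), 3 of 5 tested, and Col23a1 (-1.01). Rgs7bp, Sntb2, Brwd1 and Elmo1 (-4.58, -4.53, -3.17 and -2.48) were the others with the greatest fall, and the nuclei with Vim held 1 UMI each of Rgs7bp and Sntb2 and 2 of Brwd1. This count depended on the draw, with 1 gene called when nuclei were thinned with another seed and 8 with RLE factors. With Rax, in 13 to 23 nuclei per library, 40 genes were lower (0.647%), among them 5 of 8 ependymal genes. Spag17 was at 15.5 CPM ± 31.0 with and 224 CPM ± 215 without Rax (SD, n = 4), and Cfap299 was lower by 3.24, Tmem212 by 2.95 and Dnah12 by 2.26 (log2), each in 4 of 4 libraries. Gm10714, Lrrc36, Unc5cl, Dthd1 and Lmntd1 had no UMI in the nuclei with Rax. With Gpr50, 26 genes were lower (0.430%), among them 4 of 8 ependymal genes, namely Tmem212, Spag17, Dnah12 and Cfap299 (-2.81, -2.17, -1.60 and -1.48, log2), and Dnah3, Cdhr3, Ankub1 and Rp1 had no UMI with Gpr50. Car10 was lower by 3.61 ± 0.96 (log2, SE), from 1 UMI with and 103 UMIs without Gpr50, a ratio of CPM of 0.0766 (0.00192 to 0.436, exact 95% interval of counting error). Without the wild-type repeat 1, the wild-type repeat 2 or the TRα1+m repeat 1 the Rax split called 7, 65 and 5 genes, and without the wild-type repeat 1 or the TRα1+m repeat 1 the Gpr50 split called 9 and 4. The Vim split called 8 genes without either library of repeat 2 and 10 without the wild-type repeat 1. Among the nuclei with fewer than 2 ependymal genes the counts were 4 for Rax, 3 for Gpr50 and 27 for Vim. The median over all genes was -0.22 for the Rax split and -0.25 for the Vim split with TMM factors, and -0.04 and 0.01 with RLE factors, so differences there are to be read against that shift.

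**Figure D5:**
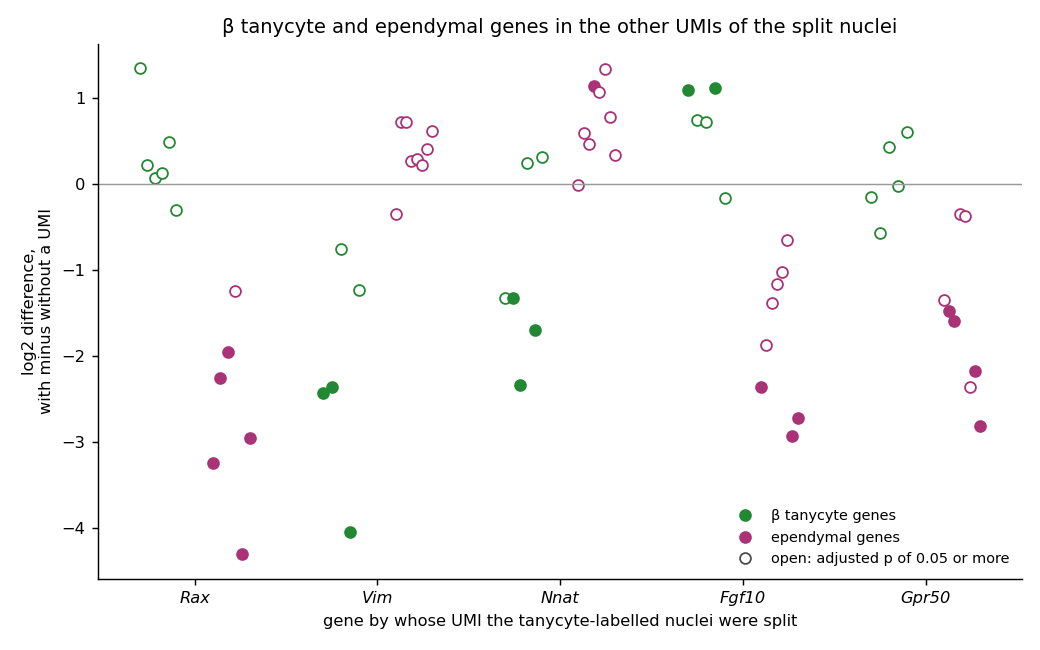
Log2 differences (vertical axis) of β tanycyte genes (green) and ependymal genes (purple) between tanycyte-labelled nuclei with and without a UMI of each splitting member (horizontal axis), in UMIs not used for the split; genes without a UMI on a side are left out. Filled points had an adjusted p under 0.05 over all genes tested; they are below 0 for β genes in the Vim and Nnat splits and above 0 in the Fgf10 split, and for ependymal genes below 0 in the Rax, Fgf10 and Gpr50 splits and above 0 for Hydin in the Nnat split.

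Of the 4 groups with under 10 nuclei in a library, 2 held members at a level of interest by their counts. Of the 39 nuclei labelled VLMC, vascular leptomeningeal cells, 36 were in the TRα1+m repeat 2 and held 11 Vim UMIs, 113 CPM. The group Neurons_2 had 852 of its 864 nuclei in the same library, with 140 Fgf10 UMIs or 49.8 CPM. No comparison of libraries was made in either group.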

How the data were processed

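Nuclei were counted by the authors with Cell Ranger 5.0.1 with introns included on mm10 (GRCm38), and filtered and clustered in Seurat. The deposited matrices hold raw UMI counts, and a deposited table gives the group of each of 56386 nuclei. The authors removed doublets before annotating nuclei. UMIs were summed per library and group with pandas 2.3.3 in Python 3.11.15. Tests used edgeR 4.0.16 in R 4.3.3 (filterByExpr, TMM factors, robust quasi-likelihood fits, two-sided, adjusted p of 0.05 over all genes tested). DESeq2 1.42.0 was an alternative, and scripts were tested on simulated data. Standard errors are the log2 difference over the square root of F. Ranges of folds are 1.96 of them without a t quantile, and can be narrower than 95% intervals with 4 libraries. The study's methods place a library of each genotype in each repeat, and deviations of same-numbered libraries correlated (r = 0.67 over 7911 genes in tanycytes, 0.64 over 12291 in astrocytes), so the repeat was also fitted as a block. The 6 genes and the gene lists were chosen with earlier results of these data known. Genes were named by rule: the members, in each list the called genes with the largest change (at most 4 per direction) or else the 2 with the largest change, in each genotype test and split the 5 called genes with the largest change per direction (in splits at 20 CPM or more), and the 3 genes most like each member. Dnah3 and the genes without a UMI on a side followed that rule, and Pmch was named outside it. The fits on nuclei with fewer than 2 ependymal genes, the repeat fits outside tanycytes and astrocytes, the difference of the repeat effect between groups and the repeat fits without 1 library (which have no genotype term) were added after seeing the data. Of the genes that this rule picks, 1 is not reported here.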

Additional observations from a re-analysis of the deposited data

Results flagged for a closer look

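Gpr50 was flagged because the effect of the experimental repeat differed between tanycytes and astrocytes. The repeat effect in tanycytes minus that in astrocytes was 1.78 ± 0.33 (log2, SE, edgeR adjusted p = 0.00121, 0.0577 with DESeq2), and the levels of repeat 2 were higher in tanycytes in both genotypes. Repeat 1 also held more tanycyte-labelled nuclei with 2 or more ependymal genes, and the Gpr50 difference in tanycytes was 1.59 (log2) without those nuclei. Gpr50 in astrocytes lay between 4.76 and 10.4 CPM, near its mean of 5.95 CPM in oligodendrocytes.

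Sgcz, a sarcoglycan gene on none of the tanycyte gene lists, was flagged because the genotype effect differed between tanycytes and astrocytes. The difference was -1.42 ± 0.19 (log2, SE, edgeR adjusted p = 0.0349). Sgcz was the single gene called in that test, and 0 genes were called with DESeq2. In tanycytes alone the blocked fit called it lower in the mutant (-1.77, log2, edgeR adjusted p = 2.7e-17). Among the nuclei with fewer than 2 ependymal genes it was at 1222 and 1232 CPM in the wild-type repeats. In the TRα1+m repeats it was at 536 and 293 CPM there.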

How the results depend on the processing

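The genotype test in tanycytes called 0 genes, 7 without a filter, 54 with the replicate block and 2 with the block in nuclei with fewer than 2 ependymal genes, and 0 without any one library. In astrocytes it called 0 genes, 2 with DESeq2, 33 without a filter and 245 with the replicate block, and 0 to 5 without 1 library. The difference of the genotype effect between both called 1 gene, 16 without a filter, 0 without a library term, 0 with the block, 0 with DESeq2 and 0 to 7 without 1 library. With the block, Fgf10 was called in tanycytes (edgeR adjusted p = 0.0473, against 1.00 without it) and 2 members were called in other groups. The block changed no other call of a member.

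The repeat called 1583 genes in tanycytes and 282 with DESeq2, 275 in nuclei with fewer than 2 ependymal genes and 714 to 1108 without 1 library. In astrocytes the repeat called 412 with DESeq2 and 1060 without the genotype term, and 280 to 2502 without 1 library, the lowest counts being 280 without the TRα1+m repeat 1 and 363 without the wild-type repeat 1. The difference of the repeat effect called 46 with DESeq2.

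The Rax split called 22 genes with RLE factors, 4 with fewer than 2 ependymal genes and 5 to 65 without 1 library. The Vim split called 3 when thinned to 1500 UMIs, 8 with RLE factors, 1 with another seed, 27 with fewer than 2 ependymal genes and 8 to 14 without 1 library. The Nnat split called 67 at 2 UMIs and 36 to 116 without 1 library. The Fgf10 split called 81 at 2 UMIs, 54 with fewer than 2 ependymal genes and 9 to 202 without 1 library. The Gpr50 split called 3 with fewer than 2 ependymal genes and 4 to 28 without 1 library. Splits at 2 UMIs could not be fitted for Rax, Vim and Gpr50, which left too few nuclei.

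The share of tanycytes with a UMI rose with depth by construction. Unthinned, thinned to 1500 UMIs and at 2 or more of 900 UMIs, it was 9.95%, 6.10% and 0.220% for Rax, 9.72%, 6.31% and 0.220% for Vim, 97.0%, 95.1% and 76.8% for Nnat, 36.2%, 28.4% and 4.40% for Fgf10, 28.8%, 21.9% and 1.94% for Gpr50 and 2.32%, 1.46% and 0.0958% for Nes.

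Differences that turned sign were not called under any setting given here, and the cause was not tested. For the difference of the genotype effect they were Rax (0.0061) and Nes (0.24) with DESeq2 and Gpr50 with DESeq2 (0.11) and without a library term (0.081). For the repeat they were Vim (0.075) and Fgf10 (-0.057) in tanycytes with fewer than 2 ependymal genes and Gpr50 in astrocytes without the genotype term (0.025). Without 1 library, genotype differences in tanycytes ran from -0.71 to 0.16 for Rax, -0.24 to 0.54 for Nnat, -1.30 to 1.02 for Gpr50 and -0.83 to 1.11 for Nes, and in astrocytes from -0.96 to 0.19 for Rax and -0.81 to 0.069 for Gpr50. Their difference between the groups ran from -0.90 to 0.97 for Rax, -0.028 to 0.48 for Vim, -1.29 to 1.27 for Gpr50 and -2.06 to 3.29 for Nes. Repeat differences ran from -0.60 to 0.38 for Vim and -0.10 to 0.64 for Fgf10 in tanycytes, and in astrocytes from -0.98 to 0.13 for Rax, -0.21 to 0.39 for Vim, -0.62 to 0.34 for Fgf10 and -0.66 to 0.43 for Gpr50 (all log2). Among the values of single genes under all alternatives, 232 kept their direction and side of the threshold, 33 turned, 16 fell below it and 1 passed it. In fits that leave a genotype with 1 library, that library is assumed to vary like the rest. Nes with 35 UMIs and Rax and Vim with 166 and 169 UMIs in tanycytes limit what could be detected.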
